A study of Sus scrofa with 6 samples.

Results

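Prostaglandin synthesis and reception were followed in the backfat of castrated and intact male pigs through every array probe set whose single gene symbol named one of 10 genes. The genes were PTGDS, PTGER3, PTGER2, PTGER4, PTGS1, PTGS2, PTGES, PTGIS, PTGFR and HPGD. Of these, 6 genes were represented, by 8 of the 23999 probe sets that are not array controls. PTGER2, PTGER4, PTGIS and HPGD had no probe set under that symbol alone and were not analysed here. The group was chosen by the barrow and boar signals of PTGDS and PTGER3, which were already known to differ, together with genes of the same pathway, so the barrow and boar values of all members are given as descriptions, with no test of their own.

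The barrows had both testes removed at 7 days of age and the boars, their full brothers, were left intact. All came from Pietrain sires crossed with Landrace dams, were weaned at 30 days, ate freely and were killed at 175 days. The tissue was the middle backfat layer over the 6th rib. Each array measured a pool of RNA from 5 animals, with 3 barrow pools and 3 boar pools drawn from 15 sib pairs, so replicate spread is that between pools. Adipocyte markers were bright in all pools, ADIPOQ averaging 21200 ± 2073 in barrows and 22244 ± 717 in boars (SD, n = 3 each), while the skeletal muscle markers MYH7, CKM and TNNT3 fell below the filter on dim probe sets.

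Prostaglandins are short-lived lipid signals made from arachidonic acid, which phospholipases release from membranes. The cyclooxygenases PTGS1 and PTGS2 convert it to prostaglandin H2, and terminal synthases turn that into prostaglandin D2 (PTGDS), E2 (PTGES), F2alpha or prostacyclin (PTGIS). The products act on G protein-coupled receptors, and HPGD begins their breakdown. In adipocytes prostaglandin E2 acting on the EP3 receptor, the product of PTGER3, is known from rodents to lower cyclic AMP and restrain lipolysis.

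Signals are MAS5 intensities on a linear scale, and differences are barrow minus boar on log2(signal + 16), which understates the change of dim probe sets. The brightest 60% of probe sets by mean, 14399 in number, entered 1 limma fit that did not pair the pools. A probe set was called at a Benjamini-Hochberg adjusted p under 0.05. Array medians ran from 162 to 173. On the first principal component, which held 31.6% of the variance, the barrow pool of replicate 2 lay farthest out (21.4, against 4.12 and 9.49 for the other barrow pools and -17.2 to -2.24 for the boar pools). In whole tissue, fewer cells of a type and less RNA per cell cannot be told apart.

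Of the 8 prostaglandin probe sets 5 passed the filter, 1 each for PTGDS, PTGER3, PTGS1, PTGES and PTGFR. The 3 others, PTGS2 and the dimmer probe sets of PTGS1 and PTGFR, were too dim to be tested. PTGDS was called higher and PTGER3 lower in barrows, which is 2 of 5 where 1.16% of all tested probe sets were called, 0.701% higher and 0.458% lower. These are also the 2 of 5 whose groups did not overlap, where 18.1% of all tested probe sets had no overlap. Since this contrast chose the genes, nothing is read from these shares. The other 3 tested probe sets were not called.

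**Figure D1:**
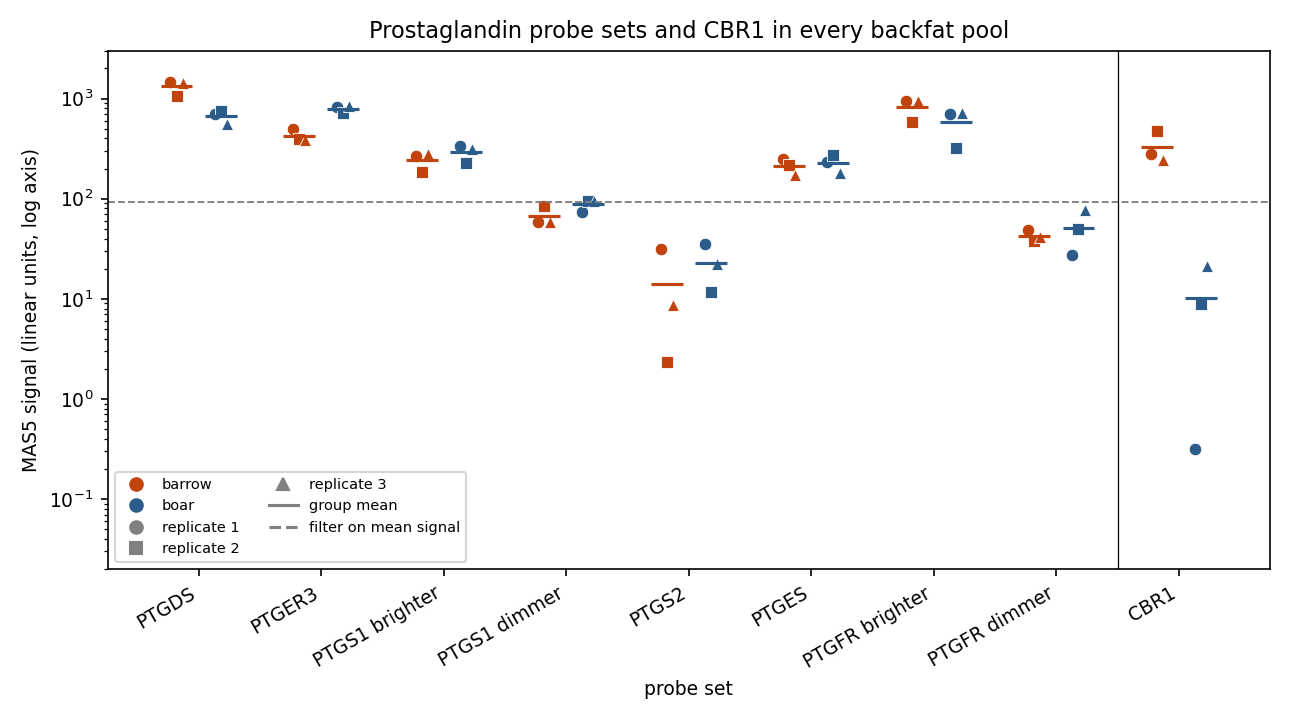
MAS5 signal (log axis) of the 8 prostaglandin probe sets and, right of the line, of CBR1 in each barrow pool (orange) and boar pool (blue), with replicate numbers as symbols, group means as bars and the filter at a mean signal of 92.7 dashed. The groups stand apart for PTGDS, PTGER3 and CBR1, and they overlap for the other probe sets.

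The terminal synthase PTGDS, a lipocalin that makes prostaglandin D2 and also binds small lipophilic molecules, was higher in barrow fat. Its signals were 1453, 1068 and 1439 in barrow pools 1 to 3, against 704, 750 and 560 in boar pools 1 to 3. All barrow pools lay above all boar pools, and barrow replicate 2 was the lowest of the barrows. The means were 1320 ± 218 in barrows and 672 ± 99.2 in boars (SD, n = 3 each). The log2 difference was 0.95 with a standard error of 0.14, a 1.94-fold difference, and in size it ranked 37 among the 14399. The difference between pools of the same number was 1.03, 0.50 and 1.34 for replicates 1, 2 and 3, smallest in replicate 2. PTGDS was no longer called without barrow replicate 1 (log2 difference 0.88), without barrow replicate 3 (0.89), without boar replicate 1 (0.99), without boar replicate 3 (0.83) or without the intensity trend in the variance (0.95).

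The E2 synthase PTGES showed no such separation. Its signals were 246, 218 and 170 in barrows and 233, 273 and 180 in boars, and the groups overlapped, although the lowest pool was a barrow pool. The log2 difference was -0.10 with a standard error of 0.19. Its sign differed between same-numbered pools, at 0.08, -0.31 and -0.07, and it turned positive without barrow replicate 3 (0.04) and without boar replicate 2 (0.03).

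PTGS1, the constitutively expressed cyclooxygenase, had slightly lower signals in barrows in both of its probe sets, with overlapping groups. The brighter one gave 266, 187 and 281 in barrows and 336, 228 and 310 in boars. Here the pool of replicate 2 was the lowest of its group in barrows and in boars alike. The log2 difference was -0.24 with a standard error of 0.19, and between same-numbered pools it was -0.32, -0.27 and -0.13. Leaving out 1 pool at a time moved the difference between -0.40 (without boar replicate 2) and -0.07 (without barrow replicate 2). Each of these settings keeps the low replicate 2 pool of the other group. The dimmer PTGS1 probe set, just under the filter, gave 58.6, 85.0 and 58.3 in barrows and 73.4, 95.2 and 94.0 in boars, a log2 difference of -0.32. It too was below 0 within each replicate number, and its replicate 2 pools were the brightest of their groups, unlike those of the other PTGS1 probe set.

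PTGS2, the inducible cyclooxygenase, was close to the bottom of the signal range in every pool. Its signals were 31.4, 2.36 and 8.74 in barrows and 35.2, 11.6 and 22.3 in boars. Replicate 1 was the brightest and replicate 2 the dimmest of both groups, and the groups overlapped. The log2 difference of -0.44 is that of a probe set not shown to exceed background, and it was -1.11 with a pseudocount of 1.

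Among the receptors, PTGER3 was lower in barrow fat. Its signals were 499, 391 and 383 in barrow pools 1 to 3, against 819, 714 and 839 in boar pools 1 to 3. Every barrow pool lay below every boar pool, with a gap wider than the range within either group. The means were 425 ± 64.7 in barrows and 791 ± 67.4 in boars (SD, n = 3 each). The log2 difference was -0.88 with a standard error of 0.13, so signal was 1.84-fold higher in boars, and in size it ranked 53 among the 14399. Within replicate numbers 1, 2 and 3 the difference was -0.70, -0.84 and -1.10. PTGER3 was no longer called without boar replicate 1 (-0.85), without boar replicate 3 (-0.84) or without the intensity trend (-0.88).

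PTGFR, the receptor for prostaglandin F2alpha, had higher signals in barrows in its brighter probe set, though the groups overlapped. Its signals were 950, 589 and 943 in barrows and 702, 317 and 715 in boars. Replicate 2 was the lowest pool of both groups, by a wide margin. The log2 difference was 0.56 with a standard error of 0.28. It was 0.19 without boar replicate 2, a setting that keeps the low barrow pool of the same number. Between same-numbered pools it was 0.43, 0.86 and 0.39, above 0 each time. With the replicate number as a block the standard error was 0.11 and PTGFR was called, in this 1 of 15 alternatives only. Then 3 of the 5 tested prostaglandin probe sets were called, where 2.35% of all were. Since this contrast chose the genes, nothing is read from that share either. The dimmer PTGFR probe set, below the filter, gave 48.5, 37.7 and 41.5 in barrows and 27.3, 49.3 and 76.5 in boars, a log2 difference of -0.13, with 0.58, -0.28 and -0.69 between same-numbered pools. The PTGFR probe sets thus differ in sign, and only the brighter one passed the filter.

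**Figure D2:**
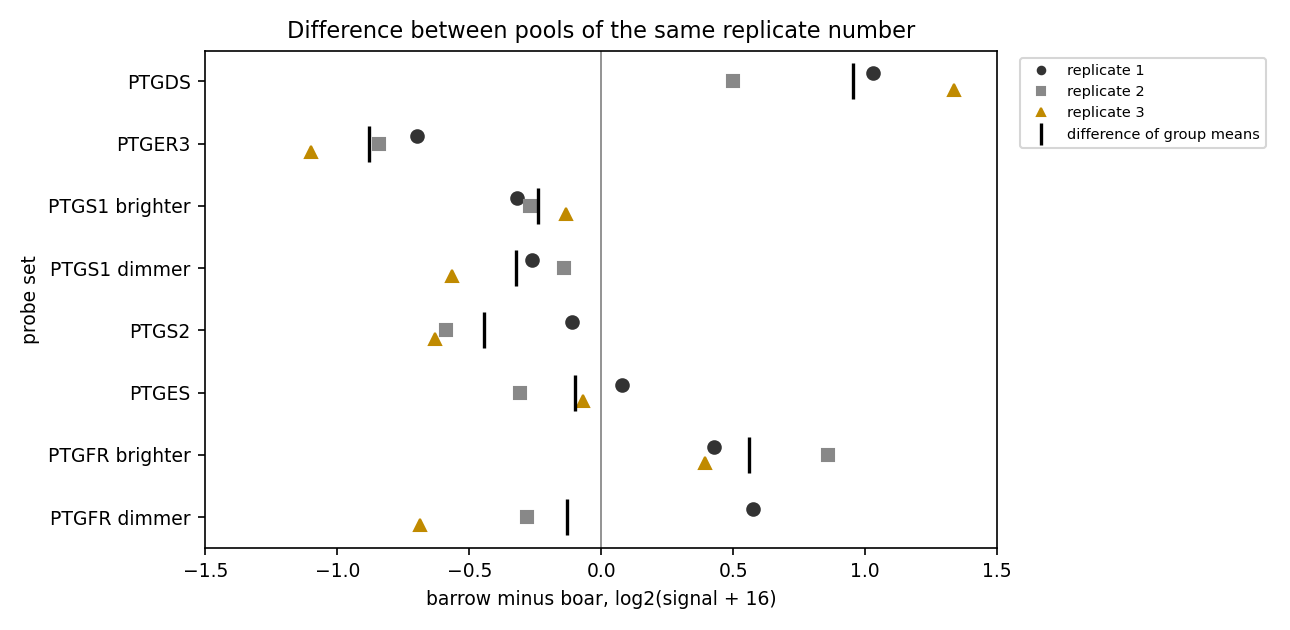
Difference between the barrow and the boar pool of each replicate number (symbols) and between group means (black bars) on log2(signal + 16), for the 8 prostaglandin probe sets. PTGDS and the brighter PTGFR probe set lie above 0 in every replicate number, PTGER3, PTGS2 and both PTGS1 probe sets lie below 0 in every one, and PTGES and the dimmer PTGFR probe set fall on both sides.

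**Figure D3:**
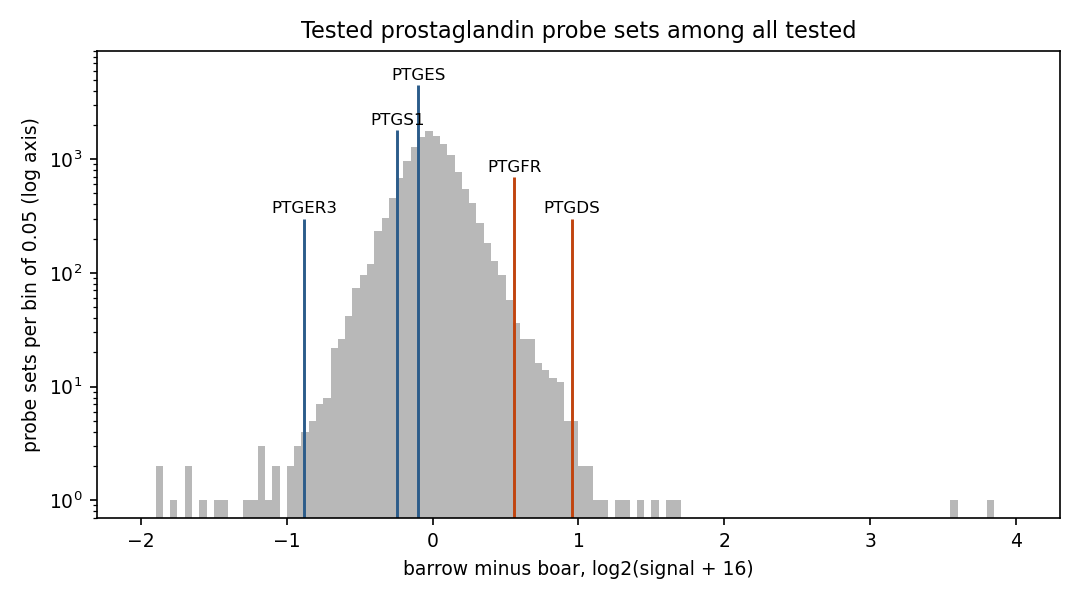
Histogram of barrow minus boar differences of the 14399 tested probe sets (log2 scale, bins of 0.05, log axis for counts), with the 5 tested prostaglandin probe sets marked by lines whose height has no meaning. PTGDS at 0.95 and PTGER3 at -0.88 lie in the thin tails, PTGFR at 0.56 lies on the right shoulder, and PTGS1 and PTGES lie in the bulk.

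The rest of the pathway was followed through 7 lists of 105 genes, of which 53 had a probe set and 43 were tested, each by its brightest tested probe set. Of these 43 genes 0 rose and 2 fell, or 4.65%, where 1.51% of the 5356 genes tested were called, 0.971% rising and 0.541% falling. Their median log2 difference was -0.03, against -0.01 over all genes tested. Both genes that fell, DUSP1 and EGR1, were known to differ when the lists were written, so nothing is read from the 4.65%.

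Genes that supply arachidonic acid did not pass the test in any of 9 tested cases (median log2 difference -0.03, range -0.36 to 0.20). LPCAT3, which places polyunsaturated fatty acids such as arachidonate into phospholipids, had the smallest p of this list. It measured 503 ± 51.7 in barrows and 647 ± 54.4 in boars without overlap (log2 difference -0.36, limma adjusted p = 0.22), and -0.32 in its other probe set. PLAA, a phospholipase A2 activating protein, had -0.22 (limma adjusted p = 0.46), and its 2 other probe sets had 0.06 and 0.01. The secreted phospholipase PLA2G12A had -0.21 (limma adjusted p = 0.61). FADS2, also on this list, was below the filter in both of its probe sets. One gave 47.8, 28.6 and 36.7 in barrows and 5.85, 3.50 and 20.2 in boars, with the groups apart. The other overlapped, at means of 16.3 in barrows and 19.5 in boars. These signals are not shown to exceed background.

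Of the other prostanoid synthases 2 were tested and neither passed. FAM213B, which encodes a reductase that makes F-type prostamides and prostaglandins, had 161, 198 and 167 in barrows and 138, 134 and 132 in boars. These groups did not overlap, but the log2 difference of 0.34 had a limma adjusted p of 0.42. PTGES3, a chaperone also described as a cytosolic E2 synthase, had -0.07 (limma adjusted p = 0.83), and its other probe set had -0.60 (limma adjusted p = 0.66).

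CBR1, a carbonyl reductase that can turn prostaglandin E2 into F2alpha and reduces many other carbonyls, was on the synthase list but fell below the filter, and it was singled out after its values were seen. Its signals were 278, 469 and 241 in barrow pools 1 to 3, against 0.317, 8.80 and 21.4 in boar pools 1 to 3. Even the dimmest barrow pool lay far above the brightest boar pool. Its mean log2 over all arrays, 6.50, missed the limit of 6.76 because of the boar signals, which are not shown to exceed background. No difference, fold or p is given for CBR1, since its boar signals have no reliable size and it was picked on this contrast. TBXAS1, the thromboxane synthase, was also below the filter, with mean signals of 32.7 in barrows and 52.2 in boars and overlapping groups.

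Of the list of other prostanoid receptors the array measured PTGFRN alone, a membrane protein that inhibits F2alpha binding to its receptor. It had a log2 difference of 0.13 (limma adjusted p = 0.69) and 0.24 in its other probe set. In the list of transport and breakdown none of 3 genes passed (median -0.23). The 15-oxo-prostaglandin reductase PTGR2 measured 1004, 975 and 1134 in barrows and 1289, 1192 and 1310 in boars, apart but not past the threshold (-0.28, limma adjusted p = 0.23). PTGR1, which reduces the same class of metabolites and inactivates leukotriene B4, was very bright, at 12752 ± 610 in barrows and 11429 ± 798 in boars (0.16, limma adjusted p = 0.40). The organic anion transporter SLCO3A1 had -0.23 (limma adjusted p = 0.58).

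The neighbouring leukotriene branch had 4 tested genes and none passed (median -0.14). CYSLTR2, a receptor of cysteinyl leukotrienes, gave 323, 311 and 412 in barrows and 497, 472 and 486 in boars, without overlap (-0.47, limma adjusted p = 0.13). The other cysteinyl leukotriene receptor, CYSLTR1, had -0.36 (limma adjusted p = 0.57). ALOX5AP, which presents arachidonic acid to 5-lipoxygenase, had 0.21 (limma adjusted p = 0.56).

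Genes through which the receptors act on cyclic AMP were centred at 0.01, with 0 of 10 past the threshold. CREM, a transcription factor family responsive to cyclic AMP, came nearest. It measured 2696, 2356 and 2666 in barrows and 1890, 2058 and 1844 in boars, with the groups apart (0.41, standard error 0.08, limma adjusted p = 0.051, or 0.047 when the replicate number was a block). Its 2 other tested probe sets had 0.35 (limma adjusted p = 0.13) and 0.09 (limma adjusted p = 0.91). The inhibitory G protein subunits GNAI2 and GNAI1, the class to which the EP3 receptor couples, had -0.18 and -0.10 (limma adjusted p = 0.54 and 0.59). GNAS, also on this list, was below the filter. It gave 41.5, 37.4 and 50.8 in barrows and 25.7, 29.4 and 29.3 in boars, with the groups apart. These signals too are not shown to exceed background.

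Of the inducers of PTGS2 and the immediate early genes that are induced with it, 2 of 14 fell (14.3%) and 0 rose. Over all genes tested 1.51% were called, 0.541% falling. The 2 that fell were known to differ when the list was written, so nothing is read from this share. The median of the list was -0.03. DUSP1, a MAP kinase phosphatase, measured 3431, 3341 and 3406 in barrows and 5449, 6090 and 5717 in boars (-0.76, limma adjusted p = 7.2e-04). EGR1, a zinc finger transcription factor, measured 897 ± 53.8 in barrows and 1295 ± 53.0 in boars (-0.52, limma adjusted p = 0.021). Its 2 other probe sets had -0.25 and -0.16, neither past the threshold. Over the alternatives the adjusted p ran up to 0.045 for DUSP1 and 0.14 for EGR1. CEBPD, an inflammation-responsive transcription factor, had 0.17 (limma adjusted p = 0.31).

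**Figure D4:**
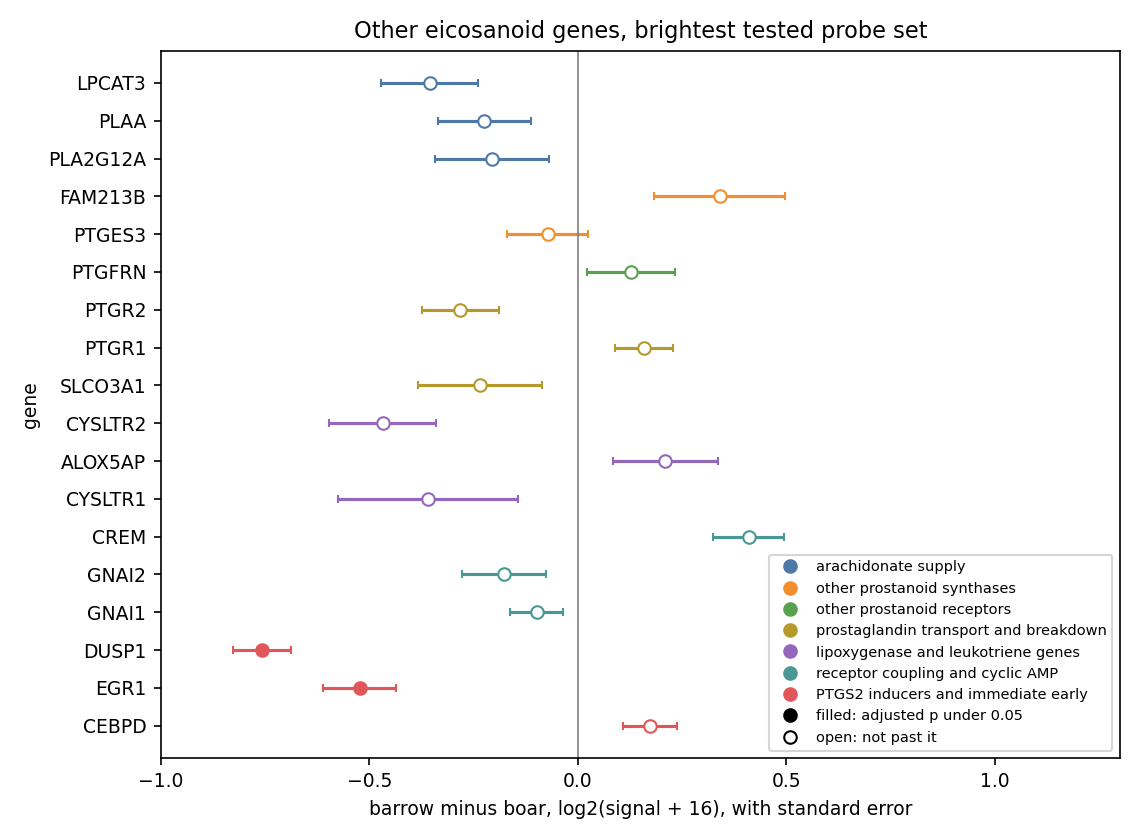
Barrow minus boar difference on log2(signal + 16) with its standard error for the named genes of the 7 pathway lists, each by its brightest tested probe set, coloured by list. The filled points DUSP1 (-0.76) and EGR1 (-0.52) passed the threshold, and the open points did not, CREM (0.41) lying nearest to it.

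The genes beside the prostaglandin genes in the RefSeq order of the pig genome (assembly Sscrofa11.1) were compared as well. The table places 5 of the 6 genes on a chromosome, all but PTGDS, and the 2 nearest tested genes on each side gave 20 neighbours. Of these 1 was called, where 1.51% of all genes tested were. This was IFI44L beside PTGFR, an interferon-induced gene, which rose by 0.47 on the log2 scale (limma adjusted p = 0.014, up to 0.11 under the alternatives). Its 2 other tested probe sets had 0.29 and 0.40 and did not pass (limma adjusted p = 0.42 and 0.49). The neighbours of PTGER3 had -0.27 (FPGT), -0.06 (ZRANB2), 0.11 (CTH) and -0.08 (SRSF11), none past the threshold.

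The genes most like PTGDS over the 6 arrays, by Pearson's r of log2 signals among 5355 other genes, were SEPT11 (0.992), CREM (0.990), ISG15 (0.988), TP53INP2 (0.987) and SLC25A33 (0.985). Those most like PTGER3 were PITPNA (0.992), C2 (0.991), ARPC5 (0.990), APOD (0.987) and ALS2CL (0.987). An r of at least 0.95 was reached by 37 genes for PTGDS and 44 for PTGER3. These are descriptions over 6 points that share the contrast between the groups.

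Of 12 marker lists, 3 had a member past the threshold (LEP, TEK and PIP) and 9 had none. Of the 6 endothelial markers tested all had differences below 0, with a median of -0.27. CDH5 (-0.0009, limma adjusted p = 0.99) and VWF (-0.05, limma adjusted p = 0.93) hardly differed. The junction protein PECAM1, the brightest, had -0.14 (limma adjusted p = 0.41), and the angiopoietin receptor TEK fell (-0.47, limma adjusted p = 0.047, up to 0.25 under the alternatives). The summed signal of the 6 was 13202 to 13610 in barrow pools, all under the 14694 to 15422 in boar pools. None of 7 macrophage markers passed (median -0.23, 6 below 0), C1QC, the brightest, having -0.23 (limma adjusted p = 0.53). With the replicate number as a block 1 of them, C1QA, fell (-0.44, limma adjusted p = 0.035). The sums of the 7 macrophage markers overlapped, at 7759 to 9104 in barrows and 8155 to 10503 in boars. In every replicate number the barrow sum was the lower, at 9104 against 10503, 7759 against 8155 and 8056 against 9550. AIF1, C1QA and TYROBP had every barrow pool below every boar pool, and the other macrophage markers overlapped. For mast cells, a source of prostaglandin D2, the array measured KIT and MS4A2 of 8 listed markers, with overlapping sums of 841 to 1159 in barrows and 1053 to 1106 in boars. KIT had 0.11 (limma adjusted p = 0.80) and MS4A2, a subunit of the IgE receptor, -0.54 (limma adjusted p = 0.20).

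Of the skin and gland epithelium markers 6 were measured and 2, PIP and KRT8, were tested. The summed signal of the 6 was 534 to 1857 in barrows and 212 to 328 in boars, while the single markers were mixed. The secretory gene PIP gave 207, 1508 and 219 in barrows and 13.7, 3.83 and 29.9 in boars. It was called, but it passed the filter through its barrow signals alone, nothing shows its boar signals to lie over background, and without any 1 of the barrow pools it fell below the filter. The epithelial markers EPCAM and KRT19 were below the filter, with every barrow pool above every boar pool, EPCAM at 76.2, 93.0 and 71.7 in barrows and 40.01, 38.6 and 15.9 in boars, and KRT19 at 49.6, 59.6 and 77.9 in barrows and 8.65, 3.58 and 10.4 in boars. AQP5 was dim with overlapping groups, at a mean of 8.32 in barrows and 24.3 in boars, KRT18 was dim too, at 55.2 in barrows and 54.1 in boars with overlap, and KRT8 had a difference of -0.20 (limma adjusted p = 0.77). The barrow pool of replicate 2 was the highest for PIP and for CBR1 and the lowest of the barrows for PTGDS. It was also the lowest barrow pool in summed smooth muscle markers (9142, against 12770 and 12632 in the other barrow pools), fibroblast markers (21940, against 27632 and 28670) and mast cell markers (841, against 1159 and 1150.2). The boar pool of replicate 2 was likewise the lowest boar pool in each of these lists, at 12519, 25430 and 1053 in the same order. The part of these cell types in the differences of PTGDS, PTGER3 and CBR1 was not tested.

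Of the 4 adipocyte markers measured, LEP rose (0.58, limma adjusted p = 0.021, up to 0.13 under the alternatives) and the other 3 did not pass, with overlapping sums of 44378 to 51356 in barrows and 48004 to 53325 in boars. None of the remaining lists had a member past the threshold. Their median differences were 0.03 for fibroblasts, -0.01 for smooth muscle, -0.24 for lymphocytes and -0.10 for the nerve sheath. Their brightest markers were DCN (-0.03), ACTA2 (-0.32), CD8A (-0.24) and S100B (-0.03), in the same order, with limma adjusted p from 0.32 to 0.96. The fibroblast marker DPT fell with the replicate number as a block (-0.32, limma adjusted p = 0.041). For neutrophils and platelets the filter left 1 marker each, S100A9 at 0.22 and GP9 at -0.07, and for skeletal muscle it left 0.

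**Figure D5:**
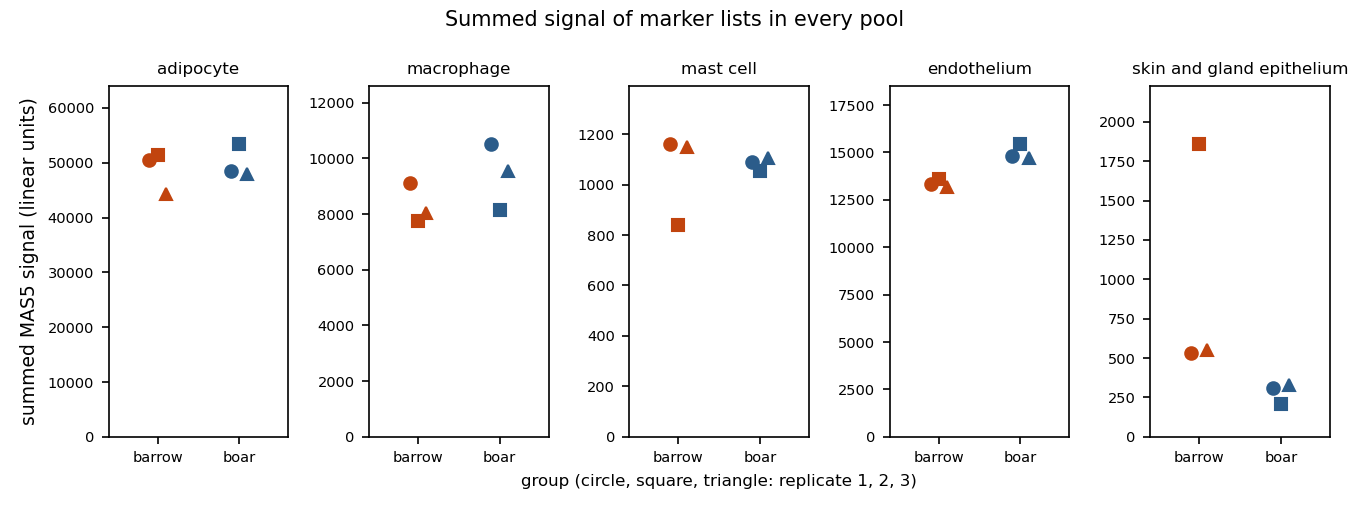
Summed MAS5 signal (linear units, axis from 0) of 5 marker lists in each barrow pool (orange) and boar pool (blue), with replicate numbers as symbols. Barrow and boar pools stand apart for endothelium, where barrows are lower, and for skin and gland epithelium, where barrows are higher. They overlap for adipocytes, macrophages and mast cells. The barrow pool of replicate 2 reaches 1857 for skin and gland epithelium, of which PIP alone gives 1508. The single markers of that list were mixed, and KRT8 and AQP5 had lower means in barrows. Within each replicate number the macrophage sum is lower in the barrow pool.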

How the data were processed

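Each of the 6 arrays held RNA from a pool of 5 pigs. The deposited values are intensity values on a linear scale, 1 per probe set, made by the authors with MAS5 per the submitters' processing notes. No version or setting is given in the sources used here. The 2% trimmed mean was 500.09 to 500.10 on every array, a global scaling visible in the values. Detection calls were not used. Precision is limited by the number of arrays. Of the 24123 probe sets 124 were controls and were left out. Of all probe sets, 10099 had 1 symbol in the platform annotation, 198 several and 13826 none, and a probe set was named only where it had 1.

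The comparison used limma version 3.58.1 under R version 4.3.3 (eBayes after lmFit, with an intensity trend, 2-sided, checked on simulated data) on log2(signal + 16) of the upper 60% of probe sets. The members and lists were chosen with earlier results of these data known. Named were all members, per pathway list every called gene and the 3 with the smallest p, the 5 genes most correlated with PTGDS and with PTGER3, and per marker list the called and the brightest genes. CBR1, TBXAS1, FADS2, GNAS, the genes beside the members and some markers were named outside that rule, after their values were seen. The members' p-values are not given because the contrast chose them.

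Both groups carry replicate numbers 1 to 3. Residuals of same-numbered barrow and boar pools correlated at 0.12, 0.17 and 0.26, each above 0.1, so the pools were regarded as paired by number. What they share is not stated. The main fit does not use this pairing, so its standard errors, adjusted p and calls are those of unpaired pools. The fit with the replicate number as a block called 338 probe sets, against 167 in the main fit. The blocked value is given where it changes a call. Alternatives were other pseudocounts, scalings, filters and variance models, array weights, the block, and each pool left out.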

Additional observations from a re-analysis of the deposited data

How the results depend on the processing

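The count of called probe sets, 167, was 96 without a filter, 32 without the intensity trend, 425 with array weights and 338 with the replicate block, and 27 to 290 with 1 pool left out. Of the prostaglandin probe sets 2 were called, 0 without the intensity trend, 3 with the replicate block, and 0 to 2 with 1 pool left out. PTGDS was called in 10 of 15 alternatives, PTGER3 in 12 and PTGFR in 1, the replicate block. The log2 difference ran from 0.83 to 1.10 for PTGDS, from -0.997 to -0.812 for PTGER3 and from 0.19 to 0.78 for PTGFR. Both ends for PTGFR came from leaving out 1 pool of replicate 2, low in both groups, while keeping the other. Of the pathway genes 2 were called, 4 with pseudocount 64 (CBR1 and CREM besides DUSP1 and EGR1), 1 without the intensity trend, 1 with the mean of probe sets, and 1 to 3 with 1 pool left out. CBR1 was also called without a filter, without boar replicate 1 and without boar replicate 2. It was picked on this contrast, so nothing is read from these calls. DUSP1 was called in every alternative. In this pairing of the pools by number, the replicate block changed no other call among the genes named from the pathway lists than that of CREM. The causes of these changes were not tested. A signal near the bottom of the range, as for PTGS2, or for CBR1 and PIP in boars, gives no reliable size of a difference.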
